A study of Homo sapiens with 7 samples.

Results

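PDP1, PCDH7 and ITPRID2 are 3 of the 20162 protein-coding genes that GENCODE 44 places on hg19, and they lie under the widest called intervals of H3K4me1, H3K9Ac and H3K36me3 in HCT116 cells. HCT116 is an established human colorectal carcinoma line. The genes were selected on measured widths. Among intervals past the quality limits of the Methods, the widest of H3K4me1 overlapped PDP1, the widest of H3K9Ac overlapped PCDH7 and the widest of H3K36me3 overlapped ITPRID2. These widths are given as a description and are not used to support anything else. The H3K36me3 choice depended on the limits: among all deposited H3K36me3 intervals, the one over ITPRID2 ranked 479 by width.

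The cells were grown to 200000 per well and the chromatin was sheared in the culture plate with PIXUL, an ultrasound instrument that treats every well of a 96-well plate. One ChIP-seq library per antibody was then prepared from a single well, for H3K4me1, H3K4me3, H3K9Ac, H3K27Ac, H3K27me3, H3K36me3 and CTCF. No treatment, genotype or time point separates these 7 libraries, so that the antibody is the only difference the labels give, and the H3K27Ac library was not analysed here. Each of the other 6 has a list of intervals with a fold enrichment, which is a linear ratio over the background of the peak caller, and a −log10 q-value. With 1 library per mark there was no replicate, and no difference below carries a test or an error beyond the called edges. The sequencing depth is unknown from the lists, and a deeper library could give more, wider or stronger intervals. The copy number of the regions was not assessed, and no width or fold enrichment was adjusted for it here.

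The lists held 50521 intervals for H3K4me1, 16112 for H3K4me3, 34164 for H3K9Ac, 55270 for H3K27me3, 40010 for H3K36me3 and 44812 for CTCF. An interval is called past the limits where its q-value is below 1e-03 and its fold enrichment above 2 for H3K4me1 and H3K27me3, and where the q-value is below 1e-10 and the fold enrichment above 5 for the other 4. The Methods word the stricter limits for histone marks, and their use for CTCF is an extension made here. Only 90 of the H3K36me3 intervals passed, against 32292 of H3K4me1 and 12720 of H3K9Ac. Markers of colon epithelium were checked for an H3K4me3 interval within 1 kb of the transcription start site (TSS), and 6 of 11 had one (EPCAM, CDH1, KRT8, KRT18, KRT19 and CDX2). KRT20, CDX1, VIL1, CDH17 and LGALS4 had none. Of 9 markers of blood, endothelium, fibroblasts, liver and neurons, 1 had one, the fibroblast collagen gene COL1A1. Over all protein-coding genes, 61.6% had an H3K4me3 interval there. The 6 of 11 lie near that share and are not read as a sign of cell type.

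Modified histones divide an active gene along its length. H3K4me3 collects at active promoters, H3K4me1 marks enhancers and the flanks of promoters, and H3K9Ac marks active promoters and enhancers. H3K36me3 is laid down behind elongating RNA polymerase II and so covers the bodies of transcribed genes, mostly downstream of the promoter. H3K27me3 is the mark of Polycomb repression, and CTCF binds DNA at insulators and at the anchors of chromatin loops. The usual order along a gene is therefore a short promoter domain followed by a body with H3K36me3. In the genes described here H3K4me1 and H3K9Ac covered most of the annotated body. At PDP1 most of that body lies upstream of the TSS of the main (canonical) transcript.

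The 3 genes have different functions and different lengths. PDP1 encodes a mitochondrial phosphatase that removes phosphate from pyruvate dehydrogenase and so activates it. Its annotated gene (ENSG00000164951) spans 68.262 kb of chromosome 8, chr8:94870035-94938296 on the plus strand, but the canonical transcript covers only the last 9.146 kb of it, in 2 exons. PCDH7 encodes a non-clustered protocadherin, a transmembrane protein of the cadherin family. The gene (ENSG00000169851) spans 426.437 kb of chromosome 4, chr4:30721991-31148427 on the plus strand, with 3 exons and introns of 195556 and 222103 bp. ITPRID2 encodes a cytoplasmic protein that binds inositol trisphosphate (IP3) receptors, the calcium release channels of the endoplasmic reticulum. The gene (ENSG00000138434) spans 39.009 kb of chromosome 2, chr2:182756457-182795465 on the plus strand, with 18 exons.

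The first and second places by width were close. The H3K4me1 interval over PDP1 measured 85692 bp, and the next one, on chromosome 11 and over no protein-coding gene, measured 85275 bp. For H3K9Ac, the interval over PCDH7 measured 79212 bp and the next, at the same chromosome 11 locus, 75747 bp. Another interval over PCDH7 was at rank 3 with 72751 bp. For H3K36me3 past the limits, the interval over ITPRID2 measured 39608 bp, the next one, over the importin gene KPNB1, 37707 bp, and that at rank 3, over the plectin gene PLEC, 31432 bp. When intervals separated by at most 3000 bp were joined, an alternative chosen after the data were seen, the H3K4me1 interval over PDP1 grew to 103.701 kb and fell to rank 4, while PCDH7 (146.883 kb of H3K9Ac) and ITPRID2 (39.608 kb of H3K36me3) stayed at rank 1.

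Taking each gene with 100 kb on either side, 57 intervals of the 6 lists lay at PDP1, 104 at PCDH7 and 33 at ITPRID2. Of these, 22, 25 and 15 were past the limits. The gene body itself was overlapped by 16 intervals at PDP1, 94 at PCDH7 and 7 at ITPRID2. H3K36me3 provided 56 of the 94 at PCDH7 and 1 of the 7 at ITPRID2, so that the same mark was called as many short intervals over one gene and as a single block over the other. The maps of the 3 regions show these intervals along each gene.

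At PDP1, 1 H3K4me1 interval covered the whole annotated gene and both of its ends. It ran from 62.72 kb upstream of the canonical TSS to 22.971 kb downstream of it (chr8:94866431-94952122). Its fold enrichment was 6.48, at a −log10 q-value of 13.6. Across the H3K4me1 list, 7.04% of intervals had a fold enrichment at least as high. A further H3K4me1 interval of 16.535 kb with a fold enrichment of 6.02 ended just before it, 64.195 kb upstream of the TSS. In all, 15 H3K4me1 intervals lay in the region, 10 of them past the limits, and H3K4me1 covered 36.5% of the 100 kb upstream and 35.4% of the 100 kb downstream.

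H3K9Ac followed the same ground in 3 pieces. From 5′ to 3′ these measured 33919 bp (fold enrichment 7.15), 17461 bp (6.35) and 29319 bp (10.4). The last contained the canonical TSS and ended 22.348 kb downstream of it, within 1 kb of the end of the wide H3K4me1 interval. The pieces were separated by 1485 and 3065 bp, all 3 were past the limits, and together they covered 93.3% of the gene body. Of the wide H3K4me1 interval, 94.0% lay under H3K9Ac and 55.9% under H3K36me3.

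The promoter of PDP1 carried every active mark that was analysed. The H3K4me3 interval at the canonical TSS ran from 1.022 kb upstream to 3.698 kb downstream (4721 bp). The fold enrichment was 26.7 and the −log10 q-value 97.5. Its width ranked 156 of the 16112 H3K4me3 intervals. The noncoding gene MIR378D2HG starts on the opposite strand inside the same interval. No H3K4me3 interval lay at the 5′ end of the annotated gene, 59116 bp upstream, where the long isoform begins. The only other H3K4me3 interval of the region lay 74.296 kb downstream of the TSS and was not past the limits (fold enrichment 5.05).

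H3K36me3 at PDP1 changed in strength at the canonical promoter. Upstream of the canonical TSS, 9 intervals over the gene body had fold enrichments between 2.74 and 3.49 and none was past the limits. Downstream, 1 interval began 1.52 kb after the TSS, within intron 1, and ended 11.189 kb after it, past the 3′ end of the gene. It measured 9670 bp and had a fold enrichment of 6.23, a value reached by 0.242% of the H3K36me3 list. Exon 1 (157 bp) had no H3K36me3, while exon 2 (4053 bp), which holds the whole coding sequence, was covered to 100%. All 10 of these intervals lay wholly or in part under H3K9Ac, 9 of them wholly. H3K36me3 further covered 73.0% of the 100 kb upstream of PDP1, where TMEM67, a ciliary transmembrane protein gene, ends 38.573 kb before PDP1 starts. Its share downstream was 3.65%.

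PCDH7 had no H3K4me1, H3K4me3 or H3K9Ac interval within 1 kb of its TSS. The nearest H3K9Ac interval ended 1.532 kb upstream (chr4:30715708-30720459, fold enrichment 10.2) and the nearest H3K4me1 interval 2.029 kb upstream (fold enrichment 5.23). The body of the noncoding gene ENSG00000288940 begins under this H3K9Ac interval. The H3K9Ac interval upstream had the highest fold enrichment of the 19 H3K9Ac intervals in the region. Downstream of the TSS, H3K9Ac resumed after 4.612 kb with an interval below the limits and after 17.435 kb with the first one past them.

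A single H3K4me3 interval lay in the whole region of PCDH7, and it was weak. It measured 470 bp, its fold enrichment was 4.49 at a −log10 q-value of 4.99, and it lay in intron 1, 101.861 kb downstream of the TSS and inside the widest H3K9Ac interval. Of the H3K4me3 list, 86.4% of intervals had a fold enrichment at least as high. The 200 bases at its middle (hg19, chr4:30823987-30824186, plus strand) are shown because no other sequence of the gene was called for H3K4me3. Capitals mark CG dinucleotides, of which the whole interval held 6.
PCDH7 intron 1, H3K4me3: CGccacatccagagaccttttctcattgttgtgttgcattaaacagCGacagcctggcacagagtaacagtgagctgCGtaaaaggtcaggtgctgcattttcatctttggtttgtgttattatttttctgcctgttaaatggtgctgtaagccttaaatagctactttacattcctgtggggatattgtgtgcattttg

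The wide intervals of PCDH7 were mostly intronic. H3K9Ac had 16 intervals over the gene body, of which 6 were past the limits. The widest, of 79212 bp, ran from 85.106 to 164.317 kb downstream of the TSS within intron 1, and its fold enrichment was 8.73 at a −log10 q-value of 18.8. Just before it lay 66397 bp of H3K9Ac, also within intron 1, separated from it by 1274 bp. An interval of 56174 bp spanned the second exon, and one of 72751 bp lay within intron 2. These 4 ranked 1, 5, 7 and 3 by width in the H3K9Ac list. The pseudogene MTCYBP43, a copy of mitochondrial sequence, lies at the 3′ end of the widest interval, and reads of such a copy cannot be assigned with certainty.

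H3K4me1 at PCDH7 matched H3K9Ac in position and was cut into more pieces. It had 19 intervals over the body, of which 13 were past the limits, and the widest measured 73781, 67087 and 55330 bp. They ranked 4, 5 and 9 by width in the H3K4me1 list. Of the widest H3K9Ac interval, 96.3% lay under H3K4me1. In base pairs, PCDH7 had rank 1 among all protein-coding genes for both marks, with 321.273 kb under H3K4me1 and 338.346 kb under H3K9Ac, which follows in part from its length. As shares of the body these were 75.3% and 79.3%.

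H3K36me3 over PCDH7 was the reverse in form, broken and low. Its 56 intervals had a median width of 2353 bp and fold enrichments between 2.43 and 4.46, and 0 were past the limits, so that every value for H3K36me3 at this gene rests on intervals below them. Together they covered 55.3% of the body (235.742 kb, rank 3 of all protein-coding genes in base pairs). The share was 31.0% in intron 1 and 75.2% in intron 2. In 10 equal parts of the gene, counted from 5′, it was lowest in part 2, with 9.28%, and highest in part 7, with 88.3%. Part 7 was also where H3K9Ac (45.8%) and H3K4me1 (35.4%) dipped between 2 of their wide intervals. The widest H3K36me3 interval of the gene, 31142 bp in intron 2 (chr4:30976346-31007487), filled this gap. Only 25.8% of it lay under H3K9Ac and 10.2% under H3K4me1.

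The exons of PCDH7 divided in the same way. Exon 1 (4228 bp) and exon 3 (4328 bp) had 0% H3K4me1 and 0% H3K9Ac, and H3K36me3 covered 86.8% and 100% of them. The short exon 2 (217 bp), which lies inside the wide intervals, was covered to 100% by H3K4me1 and H3K9Ac and to 47.5% by H3K36me3. Of the coding sequence, 97.0% lay under H3K36me3 and 5.76% under H3K9Ac. Thus the large terminal exons at both ends carried H3K36me3 alone, from intervals below the limits (fold enrichment 3.02 at exon 1 and 4.14 at exon 3). H3K4me1 and H3K9Ac lay in the introns between them and over exon 2.

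ITPRID2 showed the most regular arrangement of the 3 genes. Its H3K4me3 interval ran from 0.555 kb upstream of the TSS to 4.163 kb downstream (4719 bp), and its fold enrichment was 17.8 at a −log10 q-value of 56.1. A single H3K9Ac interval began 2.382 kb upstream and ended 33.93 kb downstream, within intron 16. It measured 36313 bp, ranked 24 by width among all deposited H3K9Ac intervals, and had a fold enrichment of 8.83. H3K4me1 was missing over the first 2 exons. It stopped 0.169 kb before the TSS and resumed 2.26 kb after it with an interval of 33151 bp and a fold enrichment of 4.45.

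H3K36me3 formed 1 block over ITPRID2. It began 1.03 kb after the TSS, in intron 2, and ended 40.637 kb after it, beyond the end of the gene (chr2:182757487-182797094). Its fold enrichment was 6.58 and its −log10 q-value 10.9. That fold enrichment was reached by 0.172% of the H3K36me3 list, and the q-value lay close to the limit of 1e-10. The block covered 97.4% of the body and 16 of the 18 exons. Exons 1 and 2 had none of it and were covered to 100% by H3K4me3 and H3K9Ac. Exons 3 to 16 were covered to 100% by H3K4me1, H3K9Ac and H3K36me3. Exons 17 and 18, with the 3′ untranslated region (UTR), had H3K36me3 alone. The marks over the parts of each transcript are plotted for the 3 genes.

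**Figure D1:**
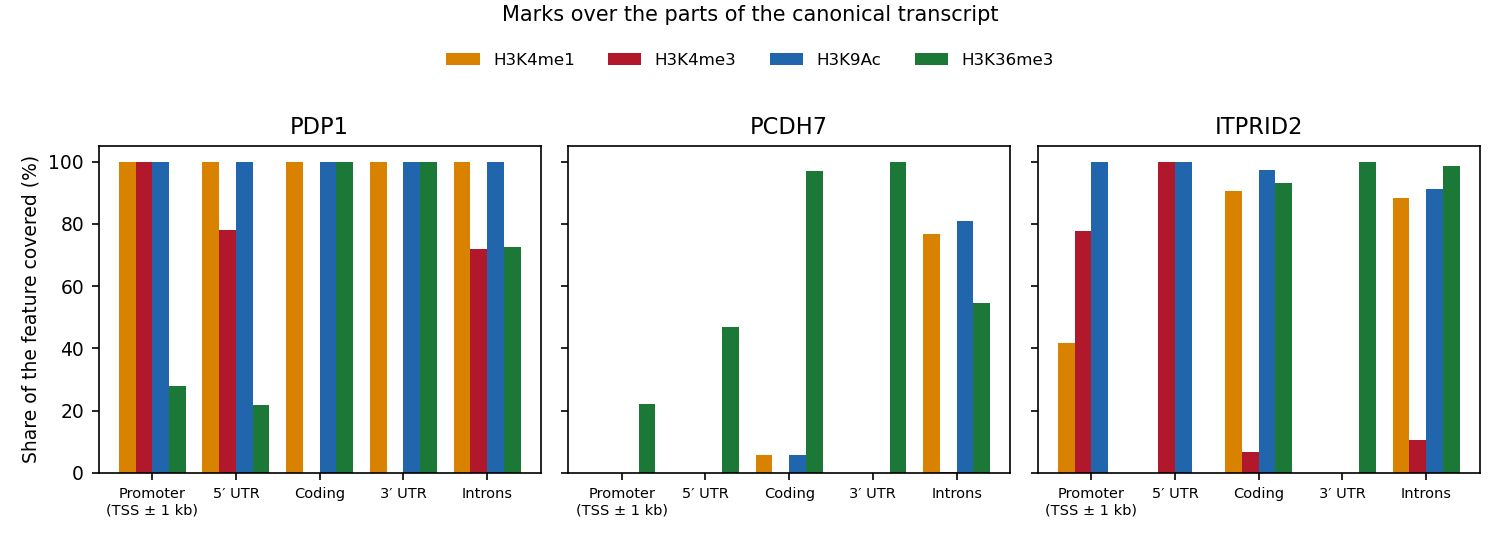
Share of each part of the canonical transcript, in percent of its base pairs, under the deposited intervals of 4 marks; the promoter is 1 kb on each side of the TSS. H3K4me3 covered the promoters of PDP1 and ITPRID2 to 100% and 77.8% and that of PCDH7 to 0%, and the 3′ UTR was under H3K36me3 to 100% in all 3 genes.

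The promoter bases of 2 genes were compared because one TSS had H3K4me3 and the other did not. Both are the 250 bases before the RefSeq TSS on GRCh38.p14, plus strand, and both are identical in hg19, where they lie at chr4:30721741-30721990 and chr2:182756207-182756456. The RefSeq promoter table matched 2 of the 3 genes, PCDH7 and ITPRID2. Capitals mark CG dinucleotides. The PCDH7 sequence held 10 of them, with an observed to expected ratio of 0.565 and 59.6% G and C, and the ITPRID2 sequence 27, with a ratio of 1.01 and 65.6% G and C.
PCDH7, chr4:30720119-30720368: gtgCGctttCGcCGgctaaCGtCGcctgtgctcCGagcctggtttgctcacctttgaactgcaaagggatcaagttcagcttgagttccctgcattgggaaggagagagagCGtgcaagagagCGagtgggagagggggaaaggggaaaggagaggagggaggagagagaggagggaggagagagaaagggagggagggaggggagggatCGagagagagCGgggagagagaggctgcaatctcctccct
ITPRID2, chr2:181891480-181891729: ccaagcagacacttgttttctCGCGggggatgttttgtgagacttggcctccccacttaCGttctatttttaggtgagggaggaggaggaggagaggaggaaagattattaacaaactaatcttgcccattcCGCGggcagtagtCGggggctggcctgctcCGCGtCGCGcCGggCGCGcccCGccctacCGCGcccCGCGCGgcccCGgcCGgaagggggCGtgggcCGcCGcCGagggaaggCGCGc

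Over the wider window of 1 kb on each side of the TSS, the genes were closer to each other. PCDH7 had 142 CG dinucleotides with a ratio of 0.738, ITPRID2 136 with 0.850 and PDP1 170 with 0.751. The medians over all protein-coding genes were 96 and 0.635. By count PCDH7 lay between the others, and its ratio was the lowest of the 3. Inside the wide intervals the density was far lower. The H3K4me3 intervals at PDP1 and ITPRID2 held 44.5 and 33.9 CG per kb, the widest H3K4me1 interval over PDP1 11.2, the widest H3K9Ac interval over PCDH7 6.02 and the H3K36me3 block over ITPRID2 6.74.

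The counts at the TSS were read against all protein-coding genes. H3K4me1 lay within 1 kb of the TSS in 2 of the 3 genes and in 61.2% of all coding genes. For H3K4me3 the values were 2 of 3 and 61.6%, and for H3K9Ac 2 of 3 and 64.3%. For CTCF they were 2 of 3 and 29.5%, and for H3K36me3 2 of 3 and 6.49%. The H3K36me3 calls at the TSS were those of PDP1, from an interval that ended 0.445 kb upstream, and of PCDH7, from one that began 0.56 kb downstream. Neither was past the limits. With 3 genes these counts describe the genes and say nothing about a class.

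Over gene bodies the 3 genes stood far from the middle of the distribution, which the selection by width fixed in part. Nothing is read from H3K4me1 at PDP1, H3K9Ac at PCDH7 or H3K36me3 at ITPRID2. Each count of 3 genes below includes the gene selected on that mark and is a description only. H3K4me1 and H3K9Ac ran together in these genes, so that selection on either mark bears on the other. H3K4me1 covered at least 50% of the body in all 3 genes and in 5.7% of coding genes, and the median over coding genes was 3.99%. The shares were 100% at PDP1, 75.3% at PCDH7 and 85.0% at ITPRID2. H3K9Ac covered at least 50% in all 3 and in 6.25% of coding genes (median 4.10%), with 93.3%, 79.3% and 89.1%. H3K36me3 did so in all 3 and in 25.4% of coding genes (median 4.83%), with 65.8%, 55.3% and 97.4%. All of H3K4me1, H3K9Ac and H3K36me3 touched the body in the 3 genes, as in 51.3% of coding genes. Past the limits the H3K36me3 shares were 11.2%, 0% and 97.4%. At PDP1 the body is the annotated gene, of which 59116 of 68262 bp lie upstream of the canonical TSS. Over its canonical transcript the shares were 100% for H3K4me1, 100% for H3K9Ac and 83.4% for H3K36me3.

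**Figure D2:**
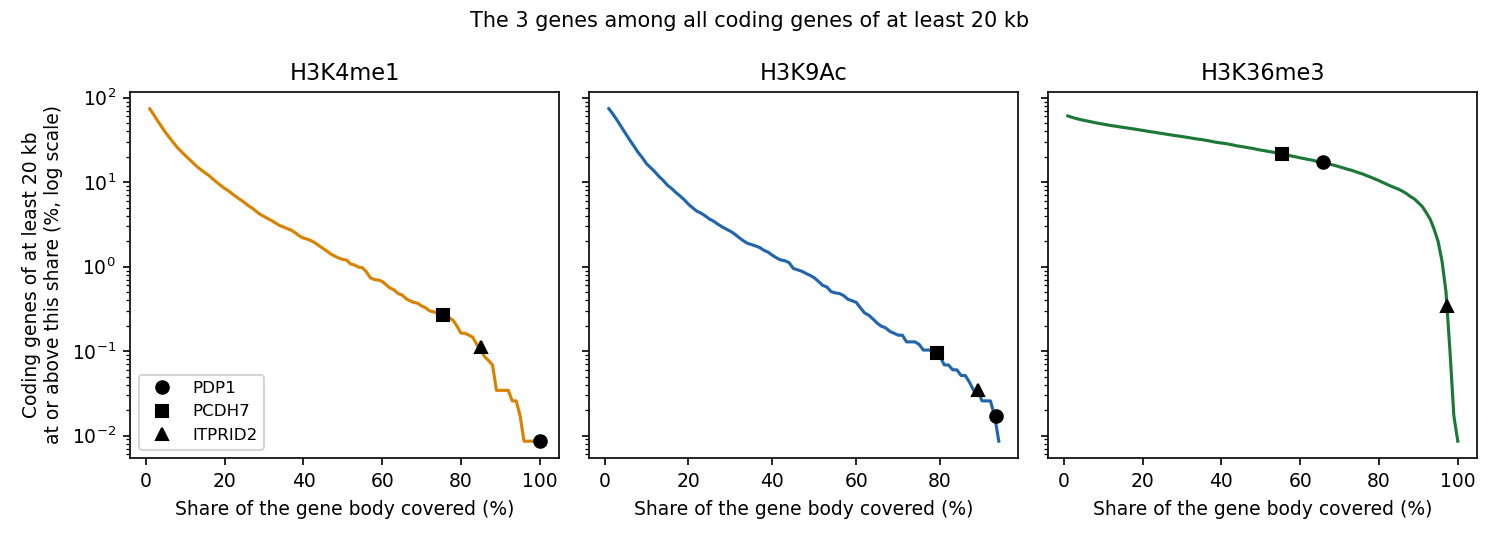
For each of 3 marks, the percent of the 11660 protein-coding genes of at least 20 kb (y axis, log scale) whose body was covered to at least the share on the x axis (percent), with PDP1 as a circle, PCDH7 as a square and ITPRID2 as a triangle. The circle for H3K4me1, the square for H3K9Ac and the triangle for H3K36me3 are marks that the genes were selected on and are shown as a description; for H3K36me3, PCDH7 (21.5%) and PDP1 (17.2%) lie in the broad part of the curve.

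The 3 marks divided the bodies differently. All of them lay together over 81.7% of ITPRID2, 61.3% of PDP1 and 34.9% of PCDH7. H3K4me1 with H3K9Ac and without H3K36me3 covered 38.3% of PCDH7, 32.1% of PDP1 and 0% of ITPRID2. H3K36me3 alone covered 14.1% of PCDH7 and 7.66% of ITPRID2, where it was the 3′ end of the gene, and 0% of PDP1. Base pairs under none of the 3 marks were found in PCDH7 only, over 4.39% of its body. Under the limits the share with both H3K9Ac and H3K36me3 was 11.2% at PDP1 and 0% at PCDH7, so that the classes with H3K36me3 in these genes rest mostly or wholly on intervals below the limits.

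**Figure D3:**
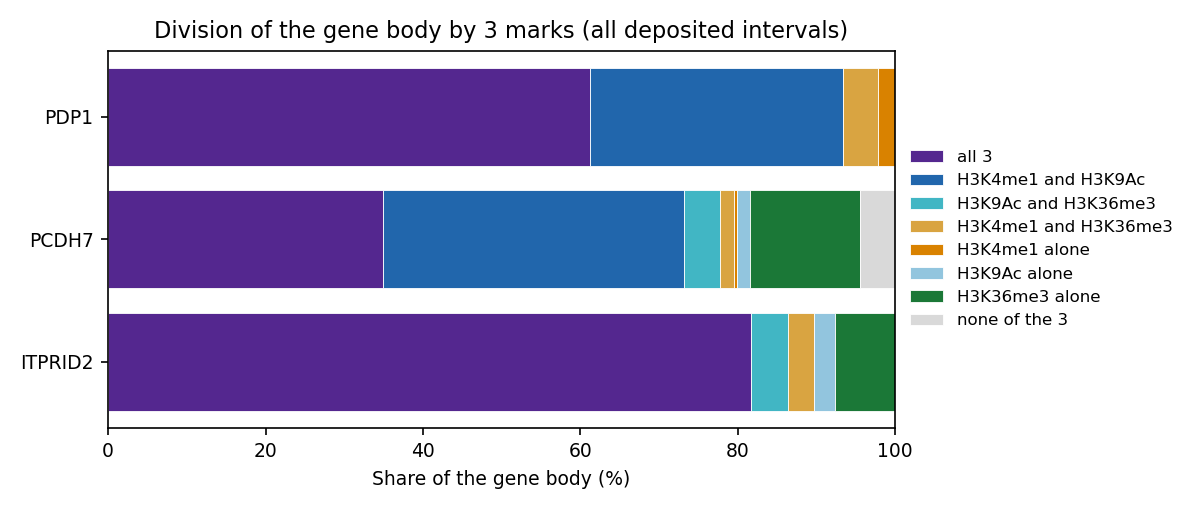
Share of the gene body (percent of base pairs) in each combination of H3K4me1, H3K9Ac and H3K36me3, all deposited intervals, 1 bar per gene. The bar of ITPRID2 is mostly the class with all 3 marks (81.7%), and that of PCDH7 is split between all 3 (34.9%), H3K4me1 with H3K9Ac (38.3%) and H3K36me3 alone (14.1%); under the limits no H3K36me3 is left at PCDH7 and 11.2% of the body at PDP1.

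H3K9Ac and H3K4me1 ran together in all 3 genes. Of the base pairs under either mark, 93.3% were under both at PDP1, 89.7% at PCDH7 and 88.5% at ITPRID2. The median over the 9113 coding genes of at least 20 kb that had both was 48.5%, and that over the 85 with H3K36me3 and with H3K9Ac on more than 50% of the body was 78.8%. At PDP1 the value equals the H3K9Ac share, because H3K4me1 covered the whole body. H3K9Ac and H3K36me3 overlapped less. Both lay over 61.3% of the body of PDP1, 39.4% of PCDH7 and 86.4% of ITPRID2. The median was 0% over the 7254 genes of at least 20 kb with both marks and 26.1% over the same 85 genes. These overlaps include the intervals that the genes were selected on, and wide cover by a mark raises its overlap with others. The contrasts with the medians therefore follow in part from the selection and are a description only.

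The share of H3K36me3 was also compared inside and outside H3K9Ac. At PCDH7, H3K36me3 covered 49.7% of the base pairs inside H3K9Ac and 76.9% of those outside. The gap was wide in intron 1 (28.7% inside and 56.3% outside) and narrow in intron 2 (73.3% and 80.0%). At PDP1 the shares were 65.6% and 67.4%, and at ITPRID2 97.0% and 100%. The shares outside rest on few bases there, stretches of 1485 and 3065 bp at PDP1 and of 1270 and 2990 bp at ITPRID2. Among the 3 genes a much lower share inside was seen only at PCDH7, where no H3K36me3 interval was past the limits. Over the 85 genes of at least 20 kb with H3K36me3 and with H3K9Ac on more than 50% of the body, the medians were 43.4% inside and 76.9% outside. These 85 include the 3 genes described here, and the median outside equals the value of PCDH7 itself. Their median difference, inside minus outside, was -23.4 percentage points, and that of PCDH7 was close to it at -27.2.

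The wide intervals of PCDH7 differed among themselves in the same respect. Of the 66397 bp interval, 11.2% lay under H3K36me3, of the widest one 37.2%, of the 56174 bp interval 72.4% and of the 72751 bp interval 68.1%, in the order of their position from 5′ to 3′. Of the 56 H3K36me3 intervals over the gene, 34 lay wholly inside H3K9Ac, 14 in part and 8 outside.

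No gene showed a sequence of an active part followed by a transcribed part without overlap. The selection on wide intervals made such overlap likely. At PDP1 H3K4me1 covered the whole body, so that any H3K36me3 interval over the body had to overlap it. The share of other coding genes with such overlap was not counted, so this is a description only. With intervals cut at the gene ends, the first H3K36me3 interval started before the last H3K9Ac or H3K4me1 interval ended in every gene. The distance was 66.357 kb at PDP1, 416.539 kb at PCDH7 and 34.988 kb at ITPRID2. It is a span between the outermost edges and not the base pairs that the marks share. At PCDH7 both edges belong to intervals below the limits. For the canonical transcript of PDP1 the span was 7.625 kb. The profiles along 10 equal parts of each gene show what remained of an order. At ITPRID2 H3K9Ac went from 100% in part 8 to 69.8% in part 9 and 21.0% in part 10, while H3K36me3 stayed at 100%. At PCDH7 H3K9Ac was at 17.0% in part 10, where H3K36me3 covered 65.4%.

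**Figure D4:**
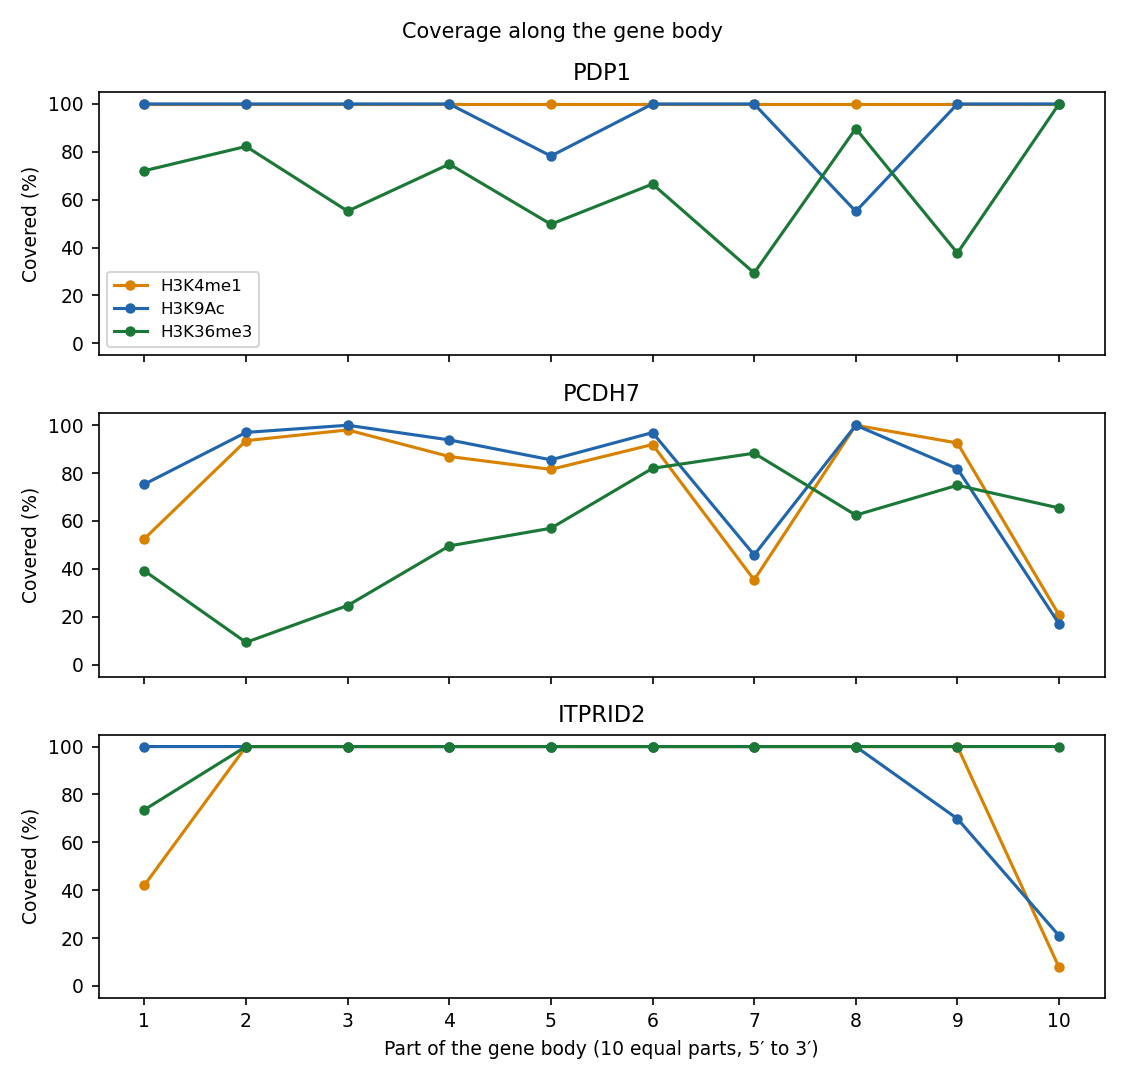
Share of each of 10 equal parts of the gene body, from 5′ to 3′, under H3K4me1, H3K9Ac and H3K36me3 (percent of base pairs, all deposited intervals, points joined by lines). H3K4me1 is at 100% in every part of PDP1, H3K36me3 of PCDH7 rises from 9.28% in part 2 to 88.3% in part 7, and in part 10 of ITPRID2 H3K36me3 is at 100% and H3K4me1 at 7.77%.

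The Polycomb mark H3K27me3 had 0 intervals in any of the 3 regions, as in 36.1% of coding genes. The nearest one lay 109.076 kb from PDP1, 204.985 kb from ITPRID2 and 3393.17 kb from PCDH7, and the median over coding genes was 50.323 kb. For PCDH7, 0.466% of coding genes had a distance at least as large. The interval names in the H3K27me3 list have another prefix than those in the other lists and do not contain the name of the line.

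The absence of promoter marks at PCDH7 was set beside other genes of the same kind, a comparison chosen after its values were seen. Of 86 coding genes of at least 20 kb with H3K9Ac over at least 50% of the body, 7 had no H3K4me3 interval within 1 kb of the TSS, 5 had no H3K9Ac interval there and 2, PCDH7 among them, had none of H3K4me1, H3K4me3 and H3K9Ac. Of all 11660 coding genes of at least 20 kb, 3590 had no H3K4me3 at the TSS. The counts of 5 and 2 were not set beside a share over all these genes, so nothing is read from them.

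PDP1 and ITPRID2 had a CTCF interval at the TSS, and neither interval was past the limits. Its fold enrichment was 4.78 at PDP1 and 5.08 at ITPRID2. The region of PDP1 held 8 CTCF intervals, 6 of them past the limits, and 5 of those 6 lay downstream, between 43.734 and 78.193 kb from the TSS, with fold enrichments from 7.21 to 16.5. The wide H3K4me1 interval ended at 22.971 kb and so before the first of them. The H3K4me1 and H3K9Ac intervals further downstream were shorter than 10 kb, and most of these CTCF intervals were overlapped by them. H3K4me1 overlapped those that began 43.734, 58.047, 65.939 and 74.308 kb from the TSS. H3K9Ac overlapped those at 43.734, 65.939 and 74.308 kb, and the weak downstream H3K4me3 interval the one at 74.308 kb. Whether CTCF limits the active marks here was not tested.

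PCDH7 had 3 CTCF intervals and ITPRID2 had 4. The strongest of PCDH7 (2471 bp, fold enrichment 12.5) lay 3.633 kb upstream of the TSS, under the upstream H3K9Ac interval. A second one (707 bp, fold enrichment 10.2) lay in intron 2 inside the interval of 72751 bp. At ITPRID2 the strongest (798 bp, fold enrichment 13.01) lay in intron 8, inside H3K4me1, H3K9Ac and H3K36me3 at once, and the next (762 bp, fold enrichment 7.12) 62.297 kb downstream of the TSS, over the 5′ end of the annotated gene PPP1R1C and inside further intervals of H3K4me1 and H3K9Ac.

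The CTCF core sequence, 12 bases long, was searched on both strands of these intervals. No exact match was found in the 15 CTCF intervals of the 3 regions, and 6 held a match with at most 1 mismatch. Among all 44812 CTCF intervals, 15.7% held an exact match and 52.9% one with at most 1 mismatch. The closest match in the 4 intervals of PCDH7 and ITPRID2 past the limits is shown within 30 bases of hg19, in capitals, because these are the CTCF intervals past the limits at both genes. Those at PDP1, of which 4 had a fold enrichment above 12, are not shown. The first 3 have 1 mismatch to the core and the last has 2, and a match of this kind is a description and not a binding site.
PCDH7 upstream, chr4:30716229-30716258, plus strand: ctcatctagCCACAAGGGGGCcaagaggta
PCDH7 intron 2, chr4:31047528-31047557, plus strand: cagtagcatCCTCCAGAGGGCactgtcacc
ITPRID2 intron 8, chr2:182768943-182768972, minus strand: ccttttttgCCAGTAGAGGGGgcaaaaaac
ITPRID2 downstream, chr2:182819144-182819173, minus strand: gcatgatgtCCGACAGATGGCgctgtgctt

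Protein-coding neighbours were few. TMEM67 had H3K4me3 at its TSS with a fold enrichment of 17.5 and H3K9Ac with 9.20. PPP1R1C, which encodes a protein phosphatase inhibitor subunit and starts 23.503 kb downstream of ITPRID2, had no interval of any of the 6 lists within 1 kb of its canonical TSS, although intervals of H3K4me1, H3K9Ac and CTCF lay over the 5′ end of the annotated gene. No other protein-coding gene lay within 100 kb of the 3 genes, and none within 100 kb of PCDH7. The divergent noncoding gene ITPRID2-DT starts 67 bp upstream of ITPRID2 and shares its H3K4me3 interval.

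The partners of PDP1 in pyruvate oxidation had marked promoters with 1 exception, and H3K9Ac covered less than 50% of the body in each. Of 13 genes of the pyruvate dehydrogenase complex and its regulators, 12 had H3K4me1, H3K4me3 and H3K9Ac at the TSS, and the exception was PDHA2, the testis form of the E1 alpha subunit. Taken one mark at a time, 61.2%, 61.6% and 64.3% of all coding genes had them. The fold enrichment of H3K4me3 ranged from 9.07 at PDK4, a kinase that inactivates the complex, to 28.2 at PDPR, the regulatory subunit of the phosphatase. That of PDP1 (26.7) was near that of the other phosphatase gene PDP2 (28.1). H3K9Ac covered at least 50% of the body in 1 of the 13, PDP1 itself. PDP1 was selected on the width of H3K4me1, which lay over the same ground as its H3K9Ac. This contrast therefore follows in part from the selection. In the others the share ran from 0% at PDHA2 to 29.8% at PDK2. H3K36me3 covered at least 50% in 6 of the 13 and in 25.4% of all coding genes, with 92.3% at DLAT and 82.0% at DLD, which encode the E2 and E3 enzymes.

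Most relatives of PCDH7 carried no active mark. Of 11 non-clustered protocadherins, 2 had H3K4me1, H3K4me3 and H3K9Ac at the TSS, PCDH1 (H3K4me3 fold enrichment 20.1) and PCDH19 (3.43). Over all coding genes the shares for these marks were 61.2%, 61.6% and 64.3%. At PCDH12, which had no interval at the TSS, H3K9Ac covered 10.5% of the body. PCDH7 was the only one of the 11 with H3K4me1 or H3K9Ac on at least 50% of the body and the only one with H3K36me3 there. It was selected on the width of H3K9Ac, which H3K4me1 matched in position. Its place in the family for these 2 marks follows from the selection and is a description. The next highest share of H3K9Ac was 24.9%, at PCDH1. H3K27me3 was called at the TSS of 0 of the 11. The share of all coding genes with H3K27me3 there was not counted, so nothing is read from this.

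Of 6 genes of the ITPRID family and the IP3 receptors, 4 had H3K4me1, H3K4me3 and H3K9Ac at the TSS: ITPRID2 and the 3 receptor genes ITPR1, ITPR2 and ITPR3. That lies near the shares over all coding genes, 61.2%, 61.6% and 64.3% for these marks. ITPRID1 had no interval of any list there, and TESPA1, a relative expressed in lymphocytes, had H3K27me3 with a fold enrichment of 3.84. ITPR1 had H3K27me3 (3.61) beside H3K4me3 (11.8). The fold enrichment of H3K4me3 was higher at ITPR3 (28.7) and ITPR2 (25.8) than at ITPRID2 (17.8), in single libraries without an error. H3K36me3 covered at least 50% of the body in 2 of the 6, ITPRID2 with 97.4% and ITPR3 with 86.1%, and in 25.4% of all coding genes. ITPRID2 was selected on the width of this mark. H3K9Ac reached 9.001% of the body of ITPR3, against 89.1% of ITPRID2.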

How the data were processed

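Per the labels and the methods, the authors used BWA 0.7.12 for alignment (hg19). Broad intervals were called for each library, by MACS2 according to the methods (broad cutoff 0.1) and by MACS 1.4.2 according to the submitters' processing notes. Each library came from a single well. The authors deposited for each interval a fold enrichment, which is a linear ratio over background, and −log10 p-values and q-values. Values hold for whole intervals.

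All deposited intervals were used, and those past the limits of the methods were marked. Genes came from GENCODE 44 on hg19, with the Ensembl canonical TSS. An overlap was at least 1 bp, the TSS window 1 kb on each side and the flank 100 kb. Coverage code was checked on 2000 simulated windows, of which 2000 were recovered. Python 3.11.15, numpy 2.4.6 and matplotlib 3.10.9 were used. Of the per-sample values in the files, 0 columns were left unmapped.

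The members and lists were chosen with earlier results of these data known. Named genes are the members, coding genes within 100 kb, the listed relatives and markers, and coding genes under the 3 widest intervals of each of H3K4me1, H3K9Ac and H3K36me3; noncoding neighbours and individual intervals beyond this rule were named after their values were seen. The H3K4me1 interval at rank 3 by width is not reported here. One library per mark allowed no test. The alternatives were the limits, a fold enrichment limit multiplied by 1.5, a q-value below 0.01, joined intervals, other flanks, TSS windows and overlaps, the canonical transcript and 1 mismatch in the core.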

Additional observations from a re-analysis of the deposited data

How the results depend on the processing

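No paired analysis was possible because every mark was measured in 1 library only. Of 167 values under the other settings, 128 stayed near the main value (a count within 1.5 times), 39 moved and 0 changed sign. Counts and shares cannot change sign, so a change of sign was possible only for the distances between edges. Joining intervals within 1000 bp joined none, since the smallest gap in the lists was 1136 bp. Its 21 values, all among the 128, therefore could not move. Counts of 0 for the exact core could likewise only stay at 0 under stricter limits. Depth is unknown and limits how far the edges of weak intervals can be read.

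Most moves follow from fewer intervals or a different region. The intervals at PDP1 were 57, and 22 under the limits, 18 with the fold enrichment limit multiplied by 1.5 and 97 with 200 kb flanks. At PCDH7, 104 became 25, 23 and, with a q-value below 0.01, 68. At ITPRID2, 33 became 15, 10 and, with 200 kb, 62. CTCF intervals at PDP1 (8) became 5 with the multiplied limit, 5 with 50 kb and 14 with 200 kb, and at ITPRID2 (4) 2 under the limits, 1 with the multiplied limit and 9 with 200 kb. With 1 mismatch the core was found in 3 CTCF intervals at PDP1, 2 at PCDH7 and 1 at ITPRID2, in place of 0.

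Coverage by H3K36me3 was the least stable. At PDP1 the 65.8% became 11.2% under the limits and 0% with the multiplied limit, and the share with H3K9Ac also 11.2% and 0%. At PCDH7 both shares were 0% under each of these, and 36.2% and 25.0% with a q-value below 0.01. At ITPRID2 both were 0% with the multiplied limit alone. H3K9Ac fell to 23.6% at PDP1 and 39.4% at PCDH7 with the multiplied limit. The distance from the last active to the first H3K36me3 edge at PDP1 was -7.625 kb under the limits and with the canonical transcript, and for PCDH7 the limits left no value. Of the protocadherins, 1 kept H3K4me3 and 1 H3K9Ac under the limits and with the multiplied one, and 4 had H3K9Ac within 2 kb. PDP1 ranked 4 when intervals within 3000 bp were joined, an alternative chosen after seeing the data.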
